A study of Mus musculus with 13 samples.

Results

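The genes described here are 10 components and targets of bone morphogenetic protein (BMP) signalling, picked out of the 24470 genes of a count table by their symbols: the inhibitor of DNA binding genes Id1, Id2, Id3 and Id4, the ligand gene Bmp4, the receptor gene Bmpr1a and the SMAD genes Smad1, Smad5, Smad6 and Smad7. Id2 was picked because it was higher in one of 2 experiments, so its values in that comparison are a description and carry no test. The other 9 genes were chosen for their role in serum culture.

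All 13 libraries came from E14, a mouse embryonic stem cell line of 129/Ola background, grown in Glasgow minimum essential medium with 15% fetal bovine serum and leukaemia inhibitory factor (LIF) at 1000 U/ml. The labels name no genetic change and no treatment that differs between groups, and the use of feeder cells was not given in the sources used here. In the low-input protocol the transposase Tn5 first cut open chromatin in permeabilised cells, and polyadenylated mRNA was then taken from the same lysate on oligo-dT beads, so that 1 batch of cells gave an ATAC library (a map of open chromatin) and an mRNA library. Experiment 1 had 10000 and 20000 cells, and experiment 2, run on another day, had 5000, 10000 and 20000 cells, with 1 mRNA and 1 ATAC library at each cell number. Omni-ATAC, a published ATAC protocol used as the benchmark, was run once each on 5000, 10000 and 50000 cells. Experiment is thus the same as day, and culture state and day cannot be told apart; libraries of an experiment share a day, so the p-values below measure the spread between libraries of a day, which may be technical.

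In this pathway BMP ligands bind paired type I and type II receptors, and the type I receptor BMPR1A phosphorylates SMAD1 and SMAD5, which join SMAD4 and enter the nucleus. The Id genes are direct targets of these SMADs. Id proteins have no DNA-binding region and hold E proteins away from DNA, and SMAD6 and SMAD7 are inhibitory SMADs that are themselves induced by the pathway. In mouse embryonic stem cells, BMP from serum acts through Id genes together with LIF to restrain neural differentiation.

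The promoters of 4 members are shown because they cover the contrasts met in the values: Id2 and Smad1 stood higher in the mRNA of experiment 2, Id3 had a promoter peak in every low-input list, and Smad6 had one in every ATAC list. Each window runs from 250 bases before the RefSeq start site to 50 bases after it, in the direction of transcription, from the GRCm38.p6 assembly; the Smad1 start used by RefSeq lies 40 bp from the 5′ end given in the count table. Capitals mark letters known as SMAD-binding motifs on either strand: the palindrome GTCTAGAC, the shorter motif CAGAC and the GC-rich motif GGCGCC.
Id2, chr12:25096043-25096342, minus strand: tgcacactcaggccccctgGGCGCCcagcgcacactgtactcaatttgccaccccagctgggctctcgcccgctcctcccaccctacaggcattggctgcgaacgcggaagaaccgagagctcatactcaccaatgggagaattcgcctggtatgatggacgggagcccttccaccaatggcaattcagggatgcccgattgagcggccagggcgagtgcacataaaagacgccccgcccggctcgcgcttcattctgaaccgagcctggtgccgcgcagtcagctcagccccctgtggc
Id3, chr4:136143572-136143871, plus strand: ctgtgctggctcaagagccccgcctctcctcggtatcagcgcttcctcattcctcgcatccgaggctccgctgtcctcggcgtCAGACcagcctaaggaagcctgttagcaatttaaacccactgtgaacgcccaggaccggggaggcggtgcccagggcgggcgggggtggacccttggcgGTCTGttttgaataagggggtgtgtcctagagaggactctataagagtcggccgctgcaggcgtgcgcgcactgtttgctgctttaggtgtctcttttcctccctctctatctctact
Smad1, chr8:79399379-79399678, minus strand: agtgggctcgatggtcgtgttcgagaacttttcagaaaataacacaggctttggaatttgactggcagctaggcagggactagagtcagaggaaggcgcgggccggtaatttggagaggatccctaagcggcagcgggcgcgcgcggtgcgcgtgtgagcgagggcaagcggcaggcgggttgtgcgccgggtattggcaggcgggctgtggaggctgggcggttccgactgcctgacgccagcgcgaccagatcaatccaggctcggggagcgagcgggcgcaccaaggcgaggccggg
Smad6, chr9:64022010-64022309, minus strand: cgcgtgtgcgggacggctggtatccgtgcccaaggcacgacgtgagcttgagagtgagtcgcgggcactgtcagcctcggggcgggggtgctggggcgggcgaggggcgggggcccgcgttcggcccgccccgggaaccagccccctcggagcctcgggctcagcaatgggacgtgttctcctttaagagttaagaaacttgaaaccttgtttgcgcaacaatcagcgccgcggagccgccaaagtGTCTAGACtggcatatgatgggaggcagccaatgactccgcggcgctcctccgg

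The Smad6 window holds the palindrome GTCTAGAC across its start site, from base -4, with the start site counted as base 0. That motif is in 70 of 32851 RefSeq mouse promoter windows of the same length, or 0.213%. The Id2 window holds 1 GGCGCC at base -231, a motif found in 11.9% of windows, and 3 CCAAT boxes (CCAAT, either strand) at bases -159, -120 and -76, a motif found in 37.4% of windows. Id3 holds CAGAC at bases -167 and -68, and 49.6% of all windows hold at least 1. None of these SMAD letters is in the Smad1 window, whose 1 CCAAT box lies at base -57. GC content was 63.3% for Id2, 60% for Id3, 65% for Smad1 and 66.3% for Smad6. Windows were found for 8 of the 10 members; GGCGCC is also in those of Id4, Bmpr1a and Smad5.

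Read counts per mRNA library ran from 13727122 to 20426252, and levels are given as CPM, a gene's reads scaled to a fixed total of reads counted in genes. The 8 embryonic stem cell markers summed to 2980 to 3113 CPM in experiment 1 and 3092 to 3223 CPM in experiment 2, with all 8 averaging 10 CPM or more. Among markers of other cell types, the 10 fibroblast genes summed to 32.5 to 36.2 CPM in experiment 1 and 9.60 to 11.03 CPM in experiment 2, most of it Thy1, with Col3a1 and Lum at 0 in every library. The 6 primitive endoderm genes summed to 9.03 to 14.3 CPM against 1.91 to 2.45 CPM, and the 5 neural genes to 4.59 to 5.62 CPM against 11.1 to 14.4 CPM. Mesoderm genes (5) summed to 1.46 to 2.81 CPM against 2.57 to 5.22 CPM, and trophoblast genes (5) to 4.01 to 4.22 CPM against 5.16 to 7.58 CPM. Their part in the results below was not tested, and fewer cells of a type cannot be told apart from less RNA per cell in bulk libraries.

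Of the 4 Id genes, Id2 was the one with separate levels in the 2 experiments by several fold. Id2 (chromosome 12, 25093799 to 25096092, minus strand) was at 21.1 and 19.7 CPM in the libraries of 10000 and 20000 cells of experiment 1, and at 89.7, 97.0 and 95.02 CPM in those of 5000, 10000 and 20000 cells of experiment 2. Every library of experiment 2 lay above both of experiment 1, and within an experiment the libraries were close: the mean was 20.4 ± 1.03 CPM (SD, n = 2) in experiment 1 and 93.9 ± 3.76 CPM (SD, n = 3) in experiment 2. The ratio was 4.59 between the libraries of 10000 cells and 4.83 between those of 20000 cells. On the log2 scale the fitted difference was 2.24. Over the 209 genes of chromosome 12 averaging 10 CPM or more the median difference was 0.03.

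Id1 and Id3, the Id genes best known as BMP targets in these cells, were both above 130 CPM in every library. Id1 (chromosome 2, 152736251 to 152737410) was at 137.0 and 154.2 CPM in experiment 1 and at 144.2, 174.3 and 154.5 CPM in experiment 2. The groups overlapped, because the library of 5000 cells lay between those of experiment 1. The log2 difference of experiment 2 from 1 was 0.18 ± 0.13 (SE), with an adjusted p of 0.416 in edgeR's quasi-likelihood test over all genes (Benjamini-Hochberg). Id3 (chromosome 4, 136143822 to 136145392) was at 167.5 and 146.0 CPM in experiment 1 and at 194.4, 182.2 and 206.5 CPM in experiment 2. All 3 libraries of experiment 2 were above both of experiment 1, by 1.24-fold on average, and the log2 difference of 0.31 ± 0.12 (SE) did not pass the test (edgeR adjusted p = 0.106).

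Id4 (chromosome 13, 48261427 to 48264036) was the low member of the family in counts, with 46 to 94 counts per library. It was at 3.64 and 3.08 CPM in experiment 1 and at 4.77, 3.48 and 4.60 CPM in experiment 2, so the groups overlapped, and its log2 difference was 0.27 ± 0.41 (SE; edgeR adjusted p = 0.745). Within the summed CPM of the 4 Id genes, Id2 made up 6.42% and 6.09% in experiment 1 and 20.7%, 21.2% and 20.6% in experiment 2. That sum was 329.3 and 323.0 CPM in experiment 1 and 433.1, 457.0 and 460.5 CPM in experiment 2. These are shares of reads, and longer transcripts give more reads.

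**Figure D1:**
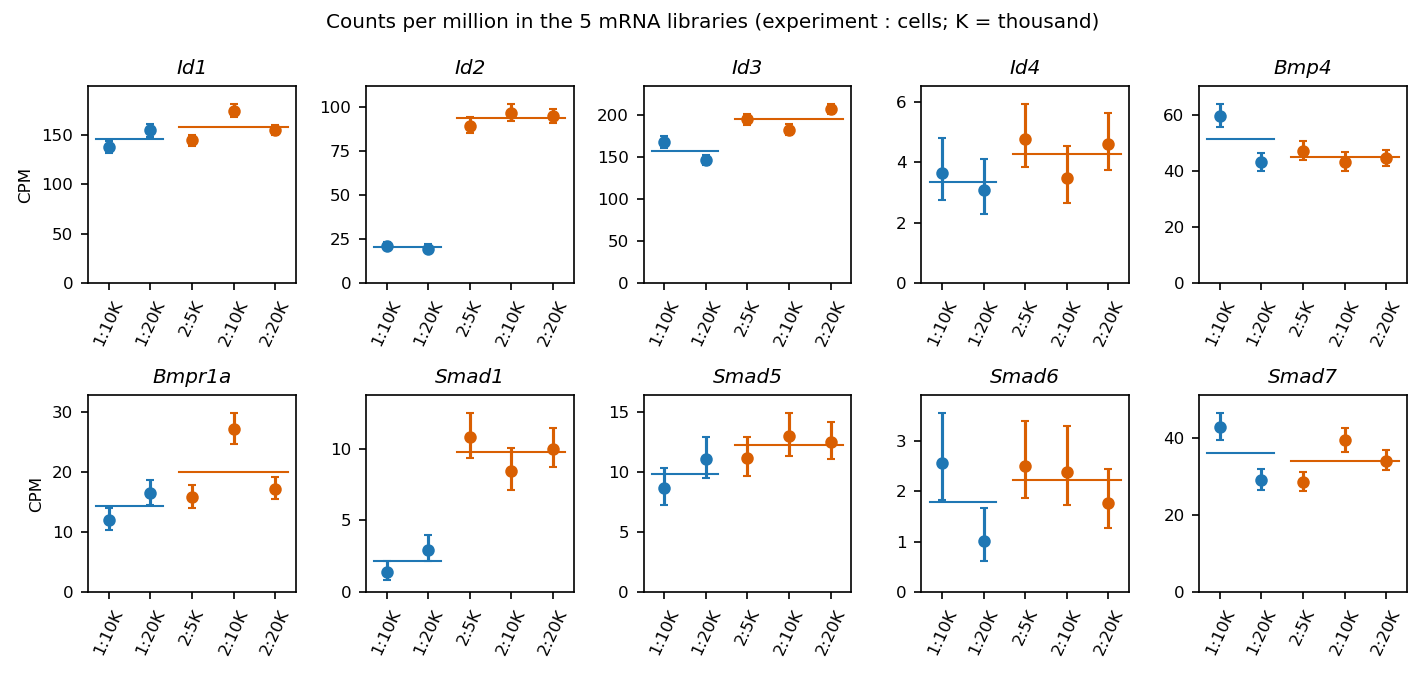
Each panel shows 1 gene, with CPM on a linear axis from 0 and the 5 mRNA libraries along the horizontal axis (experiment, then cells, with K for 1000; blue, experiment 1; orange, experiment 2). Points are single libraries with 95% Wilson intervals for counting error only, and lines are the means of each experiment; Id2 and Smad1 are separated by several fold, whereas Id1, Id4, Bmp4, Bmpr1a, Smad6 and Smad7 overlap between the experiments.

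Among the ligand and receptor genes neither passed the test between experiments. Bmp4 (chromosome 14, 46383525 to 46390669, minus strand), the BMP ligand gene of the set, was at 59.7 and 43.1 CPM in experiment 1 and at 47.2, 43.3 and 44.5 CPM in experiment 2. Its highest value was the library of 10000 cells of experiment 1, and the other 4 ran from 43.1 to 47.2 CPM. The log2 difference was -0.23 ± 0.16 (SE; edgeR adjusted p = 0.421). Bmpr1a (chromosome 14, 34411068 to 34502546, minus strand), the type I receptor gene, was at 12.1 and 16.5 CPM in experiment 1 and at 15.8, 27.1 and 17.2 CPM in experiment 2. One library, that of 10000 cells in experiment 2, stood above the rest, and the groups overlapped once the library of 5000 cells was included. The log2 difference was 0.63 ± 0.23 (SE; edgeR adjusted p = 0.0740). The adjusted p was 0.0325 with no filter on low counts, 0.00877 and 0.0250 without the library of 20000 cells of experiment 1 or of experiment 2, and 0.157 with all 5 libraries. Without the library of 10000 cells of experiment 1 or of experiment 2 the adjusted p was 0.361 and 0.684, and the log2 difference of Bmpr1a was 0.42 and 0.27. Both genes lie on chromosome 14, where the median log2 difference of 186 genes was 0.19; the part of this shift in either value was not tested.

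Of the receptor-regulated SMADs, Smad1 was higher in experiment 2 and Smad5 did not pass the test. Smad1 (chromosome 8, 79338395 to 79399468, minus strand) had 19 and 44 counts in experiment 1 and 181, 131 and 204 counts in experiment 2. In CPM these were 1.38 and 2.94 against 10.8, 8.45 and 9.99. All 3 libraries of experiment 2 lay above both of experiment 1, and the 95% Wilson intervals, which cover counting error only, did not meet: the highest upper bound in experiment 1 was 3.95 CPM and the lowest lower bound in experiment 2 was 7.12 CPM. Smad1 rose by 2.08 ± 0.37 (SE) on the log2 scale (edgeR adjusted p = 0.000439), with a ratio of 6.10 at 10000 cells and 3.39 at 20000 cells. With 1 library left out, the log2 difference of Smad1 was 1.65 and 2.75 without those of 10000 and 20000 cells of experiment 1, and 2.20 and 1.97 without those of 10000 and 20000 cells of experiment 2. Chromosome 8 as a whole was shifted: 91.2% of its 410 genes averaging 10 CPM or more were higher in experiment 2, with a median log2 difference of 0.46, and Smad1 lay 1.62 above that median. The part of the chromosome's shift in the value was not tested.

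Smad5 (chromosome 13, 56703010 to 56742378), which carries the same signal as SMAD1, was at 8.67 and 11.1 CPM in experiment 1 and at 11.2, 13.0 and 12.5 CPM in experiment 2. The experiments did not overlap but nearly touched, and the log2 difference was 0.37 ± 0.24 (SE; edgeR adjusted p = 0.363). The inhibitory SMAD genes did not separate the experiments. Smad6 (chromosome 9, 63953076 to 64022059, minus strand) was at 2.55 and 1.00 CPM in experiment 1 and at 2.51, 2.39 and 1.76 CPM in experiment 2, from 15 to 42 counts per library. Smad7 (chromosome 18, 75367365 to 75395934) was at 42.8 and 29.1 CPM in experiment 1 and at 28.5, 39.3 and 34.0 CPM in experiment 2. In both genes the 2 libraries of experiment 1 spanned most of the range. The log2 differences were 0.23 ± 0.63 (SE; edgeR adjusted p = 0.877) for Smad6 and 0.03 ± 0.18 (SE; edgeR adjusted p = 0.946) for Smad7.

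Read against all genes, the 9 members chosen for their role gave 1 call, Smad1, where 12.5% of the 12523 genes tested were called between experiments, 5.75% higher and 6.76% lower in experiment 2. Besides Id2, 3 members (Id3, Smad1 and Smad5) were higher in all 3 libraries of experiment 2 than in both of experiment 1, a pattern found in 17.7% of genes. The median log2 difference of the 9 was 0.27, and 8 of 9 were above 0, beside a median of 0.001 and 6275 of 12523 above 0 for all genes. All 9 passed the filter on low counts.

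Cell number was the comparison that played no part in choosing any member, and none of the 10 was called between 20000 and 10000 cells. Over all genes 0% were called by edgeR's quasi-likelihood test, with 101 genes at an unadjusted p under 0.05 and none of them a member. With the experiment as a replicate block 4 genes were called, none of them a member. The largest log2 differences among members were -0.84 ± 0.62 (SE) for Smad6, -0.40 ± 0.20 (SE) for Smad7 and 0.37 ± 0.88 (SE) for Smad1, each with an adjusted p of 0.999. The log2 difference of Smad6 was -1.30 without the library of 20000 cells of experiment 2 and -0.49 without that of 20000 cells of experiment 1. With 1 library left out, that of Smad7 ran from -0.50 to -0.28, and that of Smad1 from -0.76 to 2.23. For Id2 the ratio of 20000 to 10000 cells was 0.931 in experiment 1 and 0.980 in experiment 2, and that of 5000 to 10000 cells was 0.925. In simulated counts the same fit recovered 3.02% of 2-fold and 69.1% of 4-fold changes, so most differences of 2-fold with cell number were not detectable in this fit without a block, in which the difference between experiments is part of the spread.

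**Figure D2:**
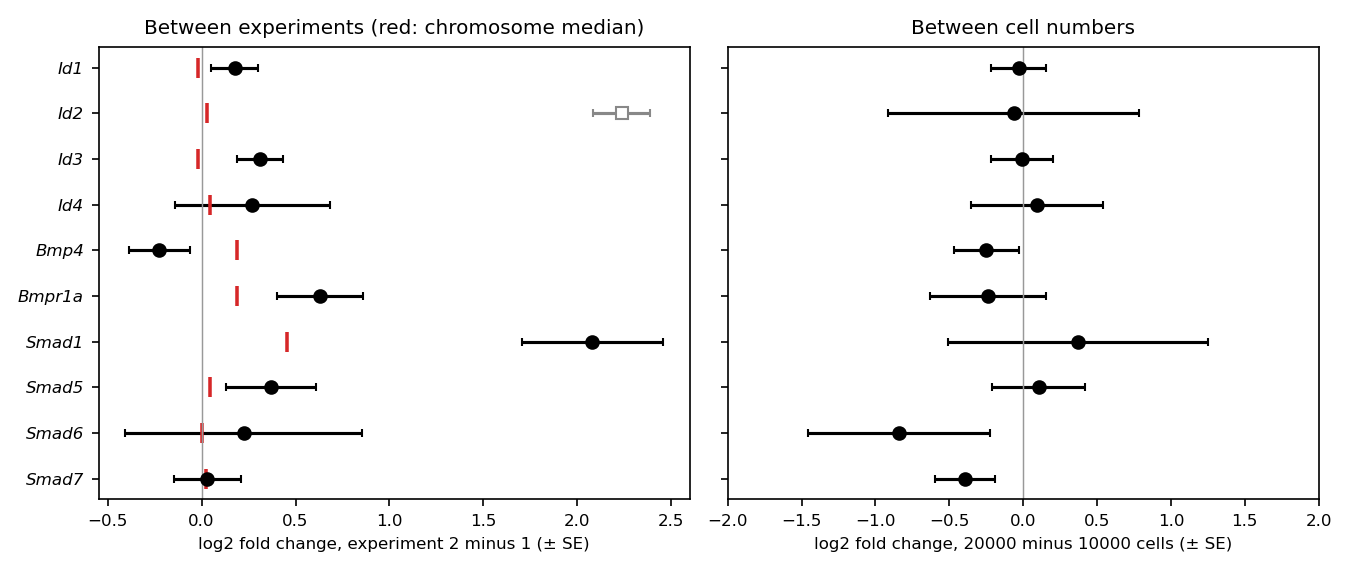
Points are fitted log2 fold changes with SE bars for the 10 genes, experiment 2 minus 1 on the left and 20000 minus 10000 cells on the right, from 4 mRNA libraries; red ticks give the median of the gene's chromosome and the open square is Id2, chosen by this contrast. Smad1 lies at 2.08 against a chromosome median of 0.46, and all points on the right lie between -0.84 and 0.37.

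The genes whose pattern over the 5 libraries was most like that of each abundant Id gene were ranked by the root mean square difference of centred log2(CPM + 1) among the 6485 genes that averaged 10 CPM or more over these libraries. For Id2 the ranking rests on the same difference for which it was picked, and describes no more than that. Among the genes nearest to Id2 were Ldhb, a lactate dehydrogenase gene, at a difference of 0.131 and Lst1 at 0.154. Ldhb was at 116.0 and 103.1 CPM in experiment 1 and at 411.2, 397.0 and 453.8 CPM in experiment 2. Nearest to Id1 were Fubp3 (0.0278), Rbbp7 (0.0285) and the gene listed as Mir682 (0.0358), and nearest to Id3 were Eif4ebp1 (0.0273), Pik3r2 (0.0366) and Dync1i2 (0.0383). Eif4ebp1 and Pik3r2 lie on chromosome 8, which was shifted upward in experiment 2, and the part of that shift in their likeness to Id3 was not tested. With a pseudocount of 0.1 the third gene changed for each of Id1, Id2 and Id3, and Lst1, at 3.21 and 1.87 CPM in experiment 1 and 15.3 to 15.6 CPM in experiment 2, gave way to Cpsf4l. Cpsf4l was at 5.54 and 5.49 CPM in experiment 1 and at 21.8, 19.9 and 26.2 CPM in experiment 2, so both Lst1 and Cpsf4l averaged 10 CPM or more only through their values in experiment 2.

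The rest of the pathway was read from 54 further genes, of which 35 had enough counts to be tested: 2 rose and 5 fell between experiments, beside 5.75% of all genes tested higher and 6.76% lower. Gdf3, a ligand gene of the same family, rose by 1.05 ± 0.13 (SE) on the log2 scale, from 60.0 and 57.8 CPM to 119.0, 113.8 and 129.4 CPM (edgeR adjusted p = 5.55e-06). Bmp7, another ligand gene, was at 3.79 and 9.90 CPM in experiment 1 and at 3.22, 2.58 and 3.08 CPM in experiment 2 (edgeR adjusted p = 0.0451). Its log2 difference of -1.27 ± 0.42 (SE) became -0.40 without the library of 20000 cells of experiment 1, with an adjusted p of 0.663, and the adjusted p was 0.247 and 0.140 without those of 10000 and 20000 cells of experiment 2. The adjusted p of Bmp7 was also 0.0552 with library size alone, 0.105 with DESeq2 and 0.0591 with all 5 libraries. Of the other 8 ligand genes 2 were tested and neither was called.

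None of the 8 receptor and co-receptor genes tested, of 9 listed, was called; the highest was the type II receptor gene Acvr2b, at 14.0 to 26.4 CPM, followed by the co-receptor gene Eng at 2.58 to 7.58 CPM. Smad4, the partner of all receptor-regulated SMADs, was at 25.3 to 32.8 CPM (edgeR adjusted p = 0.950). Smad9, the third SMAD of the BMP branch, had 38 and 23 counts in experiment 1 and 0 counts in all 3 libraries of experiment 2. Smad9 averaged 2.15 ± 0.87 CPM (SD, n = 2) in experiment 1, which was 11.1-fold above the highest floor of 3 counts per library in experiment 2. That ratio rests on the mean, and the library of 20000 cells of experiment 1 was lower, at 1.54 CPM. Smad9 was called lower in experiment 2 (edgeR adjusted p = 0.000904). Without the library of 10000 cells of experiment 1 its adjusted p was 0.0509.

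Of 13 antagonist genes 5 were tested. Fstl1, a secreted follistatin-like protein gene, rose by 1.27 ± 0.24 (SE) on the log2 scale, from 8.45 and 6.36 CPM to 17.0, 17.0 and 18.6 CPM (edgeR adjusted p = 0.000722). Fst, the follistatin gene, fell by 2.35 ± 0.75 (SE), from 1.75 and 3.88 CPM to 1.25, 0.774 and 0.343 CPM (edgeR adjusted p = 0.0396), and lost this call with the library of 5000 cells added (adjusted p = 0.124) and with cell number as a replicate block (adjusted p = 0.0508). The adjusted p of Fst was 0.439 without the library of 20000 cells of experiment 1, and 0.0852 and 0.256 without those of 10000 and 20000 cells of experiment 2, with log2 differences of -1.63, -3.01 and -1.84. None of the 9 intracellular regulators tested, of 10 listed, was called; Ppm1a and Skil had the highest CPM, at 30.8 to 41.1 and 12.0 to 18.5.

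The E proteins bound by Id proteins and the other BMP targets gave 1 lower gene each. Tcf4 was at 48.4 and 39.3 CPM in experiment 1 and at 22.8, 31.3 and 28.9 CPM in experiment 2, and fell by 0.54 ± 0.17 (SE) on the log2 scale (edgeR adjusted p = 0.0316). The adjusted p of Tcf4 was 0.318 without the library of 10000 cells of experiment 1, and 0.101 and 0.201 without those of 10000 and 20000 cells of experiment 2, and 0.0523 with DESeq2. Tcf3 was at 37.2 to 53.3 CPM and was not called (edgeR adjusted p = 0.290), nor was Tcf12. Dusp9, a phosphatase gene that BMP signals induce in these cells, fell by 0.90 ± 0.14 (SE), from 118.7 and 147.7 CPM to 69.7, 67.5 and 74.8 CPM (edgeR adjusted p = 5.72e-05). Of the 7 targets listed 4 were tested, and Msx2, Hey1 and Gata2 were not called. Between 20000 and 10000 cells none of the 35 genes was called.

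**Figure D3:**
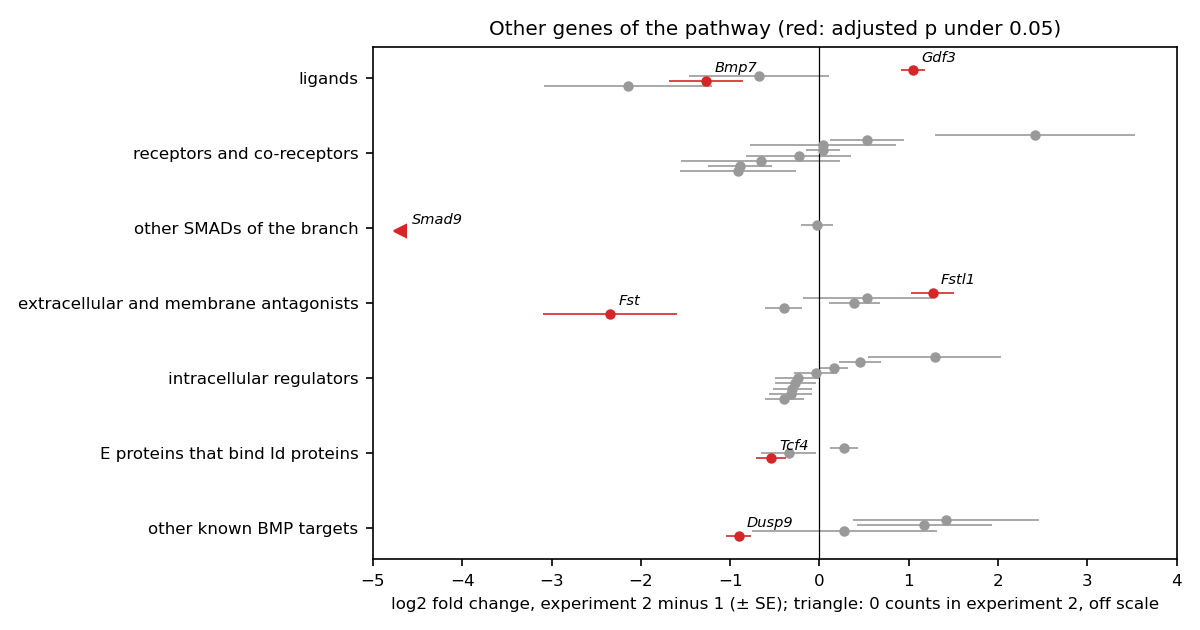
The horizontal axis gives the log2 fold change of experiment 2 minus experiment 1 with SE bars for the 35 pathway genes tested, in rows by role. Red marks the 7 genes with an adjusted p under 0.05, Gdf3 and Fstl1 to the right of 0 and Bmp7, Smad9, Fst, Tcf4 and Dusp9 to the left; Smad9, with 0 counts in experiment 2, is drawn as a triangle off the scale.

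Open chromatin was read from 8 deposited lists of peak intervals, which hold no height. The low-input lists held 18877 and 27016 peaks in experiment 1 and 18637, 29870 and 49508 in experiment 2, and the Omni lists 9097, 31207 and 95457 at 5000, 10000 and 50000 cells. Intervals of 9 bp, the shortest, were 24.4% to 59.2% of a list. Longer lists found promoters of more genes, except that the list of 18637 peaks found 7617 and that of 18877 peaks 7601. A promoter peak was any interval within 1000 bp of the gene's 5′ end. Members with one numbered 5 and 7 of 10 in experiment 1 and 7, 8 and 9 of 10 in experiment 2, where the share of all genes was 31.1%, 37.4%, 31.1%, 40.5% and 50.3% in that order. All 10 members averaged over 1 CPM, and among the 11512 genes averaging 1 CPM or more the share was 54.3%, 64.0%, 54.9%, 69.1% and 82.0%. In the Omni lists 2, 5 and 9 members had a promoter peak, beside 18.6%, 41.5% and 61.1% of all genes and 33.4%, 69.3% and 91.4% of those averaging 1 CPM or more. These counts were near or below the share of genes averaging 1 CPM or more in the Omni lists, and near it in the low-input lists.

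Smad6 had a promoter peak in all 8 lists, Smad1 and Smad7 in all but that of 5000 Omni cells, and Id3 and Id4 in all 5 low-input lists. Id2 lacked one in the lists of 10000 cells of experiment 1 and of 10000 Omni cells. Its promoter held 0 and 181 bp of peak in experiment 1 and 48, 161 and 415 bp in experiment 2, so the experiments overlapped in length. Of the printed Id2 window, 0 and 181 of 300 bases lay in peaks in experiment 1 and 48, 161 and 261 in experiment 2. The Id3 window had 217 and 155 bases in peaks in experiment 1 and 9, 155 and 150 in experiment 2. The Smad6 window had 9 and 101 bases in peaks in experiment 1 and 0, 108 and 105 in experiment 2. In the Omni lists of 5000, 10000 and 50000 cells it had 9, 16 and 213. Its promoter peaks at 5000 cells of experiment 2 thus lay outside the printed window.

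Id1 had no promoter peak in either list of experiment 1 or at 5000 cells of experiment 2, and 147 and 194 bp of peak at 10000 and 20000 cells of experiment 2. Another Id1 region, 1002 bp upstream, was likewise in those 2 lists, as intervals of 9 and 13 bp, and not in experiment 1. Id1 was 1 of 9 members, of those with a promoter peak in any of the 4 lists of 10000 and 20000 cells, with one in both lists of experiment 2 and neither of experiment 1, where 8.62% of all such genes had that pattern and 0.101% the reverse. At nearly equal list lengths, chosen after the data were seen, members with a promoter peak numbered 8 in the list of 10000 cells of experiment 2 against 7 in that of 20000 cells of experiment 1, and 7 in that of 5000 cells of experiment 2 against 5 in that of 10000 cells of experiment 1. The shares of all genes in these pairs of lists were 40.5% against 37.4%, and 31.1% in both of the shorter lists.

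Smad1 was the 1 member, of 9 with a promoter peak in any low-input list, with more promoter peak length in all 3 lists of experiment 2 than in both of experiment 1. It held 9 and 32 bp against 141, 145 and 403 bp. That pattern was found in 12.1% of all 12876 such genes, in 29.7% of the 740 on chromosome 8 and in 11.1% of the others. Chromosome 8 also held 5.41% and 5.25% of all peaks in experiment 1, 7.42%, 6.98% and 6.66% in experiment 2 and 5.13% to 5.36% in the Omni lists. The part of this in the length at Smad1 was not tested. In the printed Smad1 window 9 and 23 of 300 bases lay in peaks in experiment 1 and 141, 145 and 229 in experiment 2.

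Bmpr1a had a promoter peak in the list of 50000 Omni cells alone, and Bmp4 only a 9 bp interval in the list of 20000 cells of experiment 2. A Bmp4 region of 297 bp, merged over the lists, that begins 1109 bp upstream, just outside the promoter window, was however in 7 of the 8 lists, among them all 5 low-input lists. The Smad5 promoter held 0 and 9 bp of peak in experiment 1 and 9, 191 and 23 bp in experiment 2. Smad7 held 144 and 28 bp against 17, 587 and 779 bp, and Smad6 37 and 110 bp against 46, 327 and 343 bp. In these 3 genes the list of 5000 cells was not above both lists of experiment 1.

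**Figure D4:**
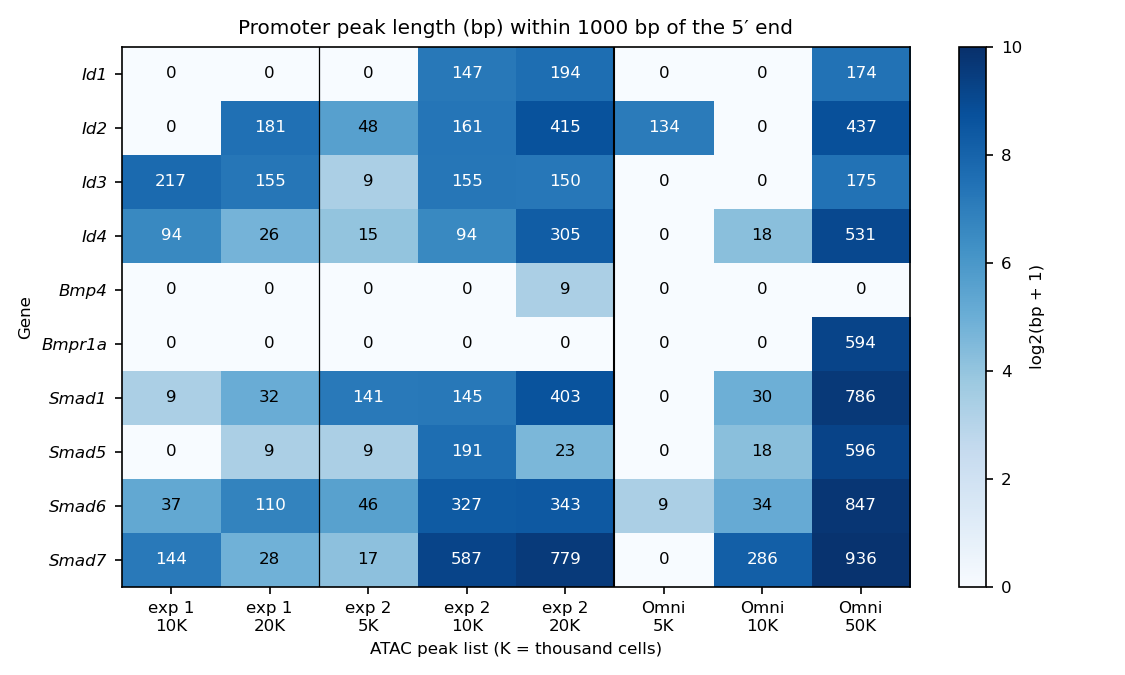
Each cell gives the summed length in bp of peak intervals within 1000 bp of a gene's 5′ end, genes in rows and the 8 ATAC lists in columns (low-input by experiment, then Omni; K for 1000 cells), with the shade on a log2(bp + 1) scale. Id1 is at 0 in both lists of experiment 1 and Smad1 rises from 9 and 32 bp to 141, 145 and 403 bp.

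Between 1 and 50 kb from the 5′ ends the members had 17 and 27 peaks in experiment 1 and 21, 32 and 55 in experiment 2, a median of 2, 2.5, 2, 3 and 5 per member beside 1, 1, 1, 2 and 3 for all genes and 2, 2, 1, 3 and 4 for genes averaging 1 CPM or more. Merged over all 8 ATAC lists with gaps of up to 100 bp, peaks at this distance made 103 regions, of which 61 were in at least 1 low-input list, 9 were in all 5 low-input lists and 4 in all 8 ATAC lists. The 4 were 11929 bp downstream of the Id2 5′ end (chr12:25083678-25084163), 2947 bp downstream of that of Id3 (chr4:136146769-136147148), 46730 bp upstream of that of Bmpr1a in Ldb3 (chr14:34549276-34549669), and 27829 bp upstream of that of Smad6 at the start of another gene, 1110036E04Rik (chr9:64049888-64050303). The Id2 and Id3 regions lie outside any gene of the count table. Id1 had 23 nearby regions, the most of any member, and Smad1 had 1, in an Omni list only.

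Of 71 member regions, promoters included, found in any of the 4 lists of 10000 and 20000 cells, 9 (12.7%) were in both lists of experiment 2 and neither of experiment 1, where 10.2% of 52239 regions had that pattern; none had the reverse, which 0.402% of all regions had. For Id2 they were a region 2723 bp upstream (chr12:25098815-25099048), with intervals of 200 and 19 bp at 10000 and 20000 cells, and a region 40838 bp downstream in Kidins220 (chr12:25055069-25055254), with intervals of 9 and 186 bp. For Id1 they were the promoter and regions 1002, 7786 and 17897 bp upstream. Id3, Id4 and Smad7 had 1 each, and the Id3 one lay at the start of E2f2.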

How the data were processed

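Per the labels' protocols, mRNA and ATAC libraries were made from the same cells, and reads were counted per gene by the authors; the deposited counts are whole numbers for 24470 genes in 5 libraries. The submitters' processing notes name cutadapt, Bowtie2 2.1.0, SAMtools 1.3.1, Picard, bedtools 2.24.0, MACS2 2.1.1, STAR 2.5, featureCounts, Subread 1.5.0-p1 and mm10, with no roles; strand use and the peak threshold are not given in the sources used here. The deposited ATAC lists hold coordinates only, so ATAC depth is unknown. Without strand, reads of Id4 and Bmp4 cannot be told apart from those of A330033J07Rik and Gm15217 on the opposite strand, which were at 0.516 and 0.716 CPM at most.

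CPM were computed from library totals. edgeR 4.0.16 (R 4.3.3; TMM, filterByExpr, quasi-likelihood test, Benjamini-Hochberg threshold 0.05, no block) was fitted to the 4 mRNA libraries of 10000 and 20000 cells; the library of 5000 cells is set beside it. Ratios are of mean CPM. Each SE is the absolute log2 difference divided by the square root of the test's F statistic, so it restates that test. The SE bar of Id2 between experiments is a description only, since that contrast picked Id2. The biological coefficient of variation was 17.1% for experiments and 32.0% for cell numbers. On simulated counts the fit recovered 50% of 2-fold changes between experiments (12512 genes), 98.5% of 4-fold ones (12547 genes), and for cell numbers 3.02% (12542 genes) and 69.1% (12517 genes). None of the 4 pairs of mRNA libraries within an experiment agreed within sampling noise (chi-square per gene at least 10.1). Experiment, a shared day per the labels, pairs the libraries of different cell numbers (r = 0.562 over 11512 genes between the experiment differences at both cell numbers). Gene IDs were matched to RefSeq for 24467 of 24470 genes; 67.0% of starts were equal. Levels were not compared between genes per length, as transcript lengths were not used here.

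Members and lists were chosen with earlier results of these data known. Named genes: all 10 members; every called gene of a pathway list, otherwise its 2 highest; the 3 genes most like Id1, Id2 and Id3 (1 of them is not reported here); for regions, those in most ATAC lists. Regions present in experiment 2 alone were named after their values were seen. Alternatives were other scalings, DESeq2 1.42.0, other filters, left-out libraries, a block, and other peak windows.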

Additional observations from a re-analysis of the deposited data

Results flagged for a closer look

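In 4 members the difference between experiments had opposite directions at the 2 cell numbers, each from 1 library per experiment and cell number, and whether the difference between experiments changes with cell number was not tested. The ratio of experiment 2 to experiment 1 in CPM was 0.956 at 10000 cells and 1.50 at 20000 cells for Id4, and 0.725 and 1.03 for Bmp4. For Smad6 it was 0.936 and 1.76, from 15 to 37 counts, and for Smad7 it was 0.920 and 1.17. None of the 4 passed the test between experiments.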

How the results depend on the processing

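Id2 kept a log2 difference between experiments of 2.20 to 2.29 under all 13 alternatives. These reuse the libraries by which Id2 was picked, so the range is a description and no test. The difference of Smad1 ran from 1.62 (less its chromosome's median) to 2.75. In the fits with 2 or more libraries per experiment, by edgeR or DESeq2, the adjusted p of Smad1 was at most 0.002. Gdf3, Fstl1 and Dusp9 also passed in all 12 fits. Genes called between experiments numbered 803 to 1817 with 1 library left out, 897 with the library of 5000 cells in place of that of 10000 cells in experiment 2 (chosen after seeing the data) and 612 with an added log2 threshold of 1, against 1567. Without the libraries of 10000 or 20000 cells of experiment 2 they numbered 803 and 869, and without that of 10000 cells of experiment 1, 1018. Members called besides Id2 numbered 1 to 2 with a library left out, and 2 with no filter on low counts and with the replicate block by cell number; the added one was Bmpr1a, which was also the 1 called among genes averaging 10 CPM or more, since Smad1 lay below that level. That block pairs nothing but a number (r = -0.00871) and called 1765 genes. For cell numbers, 2 genes were called with no filter and 4 with the replicate block by experiment, against 0, and no member.

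With 1 library left out, the log2 difference between experiments ran from -0.43 to 0.028 for Bmp4, -0.28 to 1.04 for Smad6, -0.20 to 0.33 for Smad7, 0.091 to 0.28 for Id1, 0.066 to 0.46 for Id4, 0.20 to 0.58 for Smad5 and 0.27 to 0.94 for Bmpr1a (0.26 with the replaced library named above); Smad7 was at -0.043 with all 5 libraries and -0.15 with the replaced one. That between cell numbers ran from -0.19 to 0.17 for Id1, -1.60 to 1.45 for Id2, -0.27 to 0.23 for Id3, -0.22 to 0.36 for Id4, -0.44 to 0.0045 for Bmp4, -0.70 to 0.48 for Bmpr1a, -0.76 to 2.23 for Smad1, -0.15 to 0.45 for Smad5, -1.30 to -0.49 for Smad6 and -0.50 to -0.28 for Smad7, since the experiments are then unequally mixed; Id3 was at 0.011 with library size alone and 0.0047 with no filter. No reversed value passed the test. A group left with 1 library is assumed to vary like the other. Pairs of member and list with a promoter peak numbered 52 of 80, and 33 with peaks under 50 bp left out. The median nearby peak number per member, averaged over low-input lists, was 2.9, and 1.3 both within 20000 bp and with short peaks left out. For the reversals between experiments, the cause was not tested. With 15 to 204 counts per library for Smad1 and Smad6, counting error limits their values.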
